A study of Homo sapiens with 16 samples.

Results

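The genes described here encode the MuvB complex and the proteins it works with: the core subunits LIN9, LIN37, LIN52, LIN54 and RBBP4, the pocket protein RBL2 (p130), the E2F dimerisation partners TFDP1 and TFDP2, and the late cell cycle activators MYBL2 (B-MYB) and FOXM1. The 10 genes were chosen by name, as the rows of the count table whose Ensembl identifiers map to these symbols, out of 58787 identifiers in all. Each symbol matched 1 identifier, and 9 of the 10 had enough counts to be tested.

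RNA was profiled in IMR32, a human neuroblastoma line with amplified MYCN, after transfection with 1 of 3 siRNAs (si45, si46 or si47) that target TPX2, or with the non-targeting siRNA siNTC. TPX2 encodes a spindle assembly factor that activates the kinase AURKA. Each group had 4 libraries, 16 in all, and the names of the table's columns give 48 h for every library. All groups are the same cell line without a further treatment, and control cells also received an siRNA.

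MuvB is a platform for both repression and activation of cell cycle genes. With RBL2 or its relative RBL1, a repressor E2F and a TFDP partner it forms the DREAM complex, which holds cell cycle genes silent in resting cells and after p53 has induced CDKN1A (p21). In cycling cells the pocket protein is released, MuvB binds B-MYB and then recruits FOXM1, and genes of G2 and mitosis are switched on. LIN54 contacts the CHR element of late promoters, whereas E2F and TFDP contact E2F sites, which are common in promoters of S phase genes.

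RefSeq promoters (GRCh38.p14, 250 bases before to 50 after a start) were found for 9 of the 10 genes, all but FOXM1. They were searched on both strands for the CHR letters TTTGAA and TTCGAA and for the E2F core letters GGCGGGA and GGCGCGA, which were picked after the sequences had been seen. No match in a window shown overlapped another. The windows shown are examples of an E2F core, in an activator, a core subunit and an E2F partner gene, and of a CHR in MuvB and pocket protein genes. Each is 30 bases, 5′ to 3′ on the strand of the gene, with the motif in capitals.
MYBL2: ccgacgcgcttGGCGGGAgatagaaaagtg
RBBP4: tggctgatgttGGCGCGAaggtgcgcgagt
TFDP1: agggcgccgaaGGCGCGAaaaggcgcgcag
LIN9: cggcgggcagccTTTGAAaaagcggcgcgg
LIN54: ggcccttgtgcgTTTGAAggttggcggggc
LIN37: acgaagctcatcTTTGAActgtccccgcct
RBL2: ggcgcttcgccgTTTGAAtggctgcgggcc

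The MYBL2 window is chr20:43667064-43667093 on the plus strand, with the motif beginning 39 bases before the start. The RBBP4 window (chr1:32651156-32651185, plus strand) and the TFDP1 window (chr13:113584621-113584650, plus strand) begin their motifs 41 and 121 bases before a start. The CHR letters of LIN9 (chr1:226309150-226309179, minus strand), LIN54 (chr4:83010906-83010935, minus strand) and LIN37 (chr19:35748620-35748649, plus strand) began 3, 100 and 182 bases before a start, and those of RBL2 (chr16:53434483-53434512, plus strand) 24 bases after one. Over all annotated starts, an E2F core was found in 8 of the 9 genes (all but RBL2) and a CHR in 5 (LIN9, LIN37, LIN54, RBL2 and TFDP2). Among all 35116 promoters of this length, 19.1% held one of the E2F cores and 16.4% one of the CHR forms, so a match is a description of the letters and not a site. These shares are per promoter, whereas a gene with up to 3 starts was counted for a match at any of them, so the 2 are not alike.

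The libraries held 5318159 to 7864343 counts. No 2 replicates of a group agreed within sampling noise. TPX2, the target, was at 297 to 359 CPM (counts scaled to library size) in siNTC and at 62.2 to 121 CPM in the 12 knockdown libraries. The difference from siNTC was tested for each siRNA (two-sided exact permutation p = 0.0286, the smallest that 4 against 4 libraries allow). All 11 markers of sympathetic neuroblasts were expressed. Their summed level was 6273 to 6818 CPM in siNTC, against 6626 to 7527 CPM under si45, 6858 to 7868 CPM under si46 and 7093 to 8104 CPM under si47. The si46 and si47 libraries all lay above the controls, and the part of this shift in the results was not tested. Summed markers of immune cells reached at most 2.57 CPM, with CD3E and LYZ at 0 but PTPRC at up to 16 counts in a library. Those of epithelial cells reached at most 9.65 CPM, with KRT5 at 0 but CDH1 at 10 to 51 counts. Of the 7 fibroblast markers, COL1A2 and DCN had at most 3 counts in a library, LUM at most 6 and COL3A1 at most 13. By contrast, COL1A1 had 115 to 347 counts, THY1 142 to 294 and PDGFRB 31 to 89. The summed list was at 70.7 to 92.5 CPM in siNTC and 55.0 to 79.1 CPM in si45. It was at 72.5 to 114 CPM in si46 and 66.3 to 89.7 CPM in si47, so each siRNA range overlapped that of siNTC. In such bulk samples, fewer cycling cells and less RNA per cell cannot be told apart.

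The activators were examined first. MYBL2 (ENSG00000101057, chromosome 20, 43667019 to 43716496, GENCODE v29 on GRCh38) encodes B-MYB, the MYB protein that converts MuvB into an activator. Its level was 391, 424, 423 and 455 CPM in siNTC replicates 1 to 4, 279, 346, 392 and 353 CPM in si45, 336, 307, 357 and 276 CPM in si46, and 216, 263, 334 and 229 CPM in si47. Of the 12 knockdown libraries, 11 lay below all controls, and si45 replicate 3 was just above the lowest control.

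The control mean of MYBL2 was 423 ± 26.0 CPM (SD, n = 4), and the knockdown means were 342 ± 46.8 CPM for si45, 319 ± 35.1 CPM for si46 and 261 ± 52.9 CPM for si47. Against siNTC, MYBL2 fell by 0.41 on the log2 scale under si46 (SE 0.114, edgeR adjusted p = 0.0441) and by 0.70 under si47 (SE 0.114, edgeR adjusted p = 1.5e-04). Under si45 the value of -0.31 (SE 0.114) missed the threshold (edgeR adjusted p = 0.248). Over the mean of the 3 siRNAs MYBL2 fell by 0.47 (SE 0.0905, edgeR adjusted p = 0.00125). The si46 call was a narrow one: it was lost without any 1 of 10 libraries (each siNTC replicate, si45 replicates 2 and 4, si46 replicates 1, 2 and 4, or si47 replicate 2), with edgeR adjusted p from 0.0549 to 0.165, whereas the si47 call held in all 16 such fits (at most 0.00129).

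FOXM1 (ENSG00000111206, chromosome 12, 2857681 to 2877155) encodes a forkhead transcription factor that is recruited to late promoters through B-MYB and MuvB. It stood at 131, 124, 122 and 128 CPM in siNTC, at 102, 93.3, 103 and 118 CPM in si45, at 124, 87.8, 103 and 111 CPM in si46, and at 89.6, 81.5, 90.7 and 107 CPM in si47. The controls lay close together, and 11 of the 12 knockdown libraries were below them, si46 replicate 1 being the exception. The control mean was 126 ± 4.07 CPM (SD, n = 4), against 104 ± 10.3 CPM for si45, 106 ± 15.2 CPM for si46 and 92.3 ± 10.9 CPM for si47.

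FOXM1 fell by 0.45 on the log2 scale under si47 (SE 0.103, edgeR adjusted p = 0.00356) and by 0.33 over the mean of the 3 siRNAs (SE 0.0826, edgeR adjusted p = 0.0111). The si45 and si46 values of -0.28 (SE 0.103) and -0.25 (SE 0.103) did not pass (edgeR adjusted p = 0.237 and 0.225). Without siNTC replicate 1 the call over the mean was lost (edgeR adjusted p = 0.0542). FOXM1 overlaps ITFG2 and RHNO1 on the opposite strand, and strand use in the counting is not given in the sources used here. Neither neighbour was called over the mean, with 0.07 for ITFG2 (SE 0.0953, edgeR adjusted p = 0.739) and -0.18 for RHNO1 (SE 0.0966, edgeR adjusted p = 0.276). RHNO1 had -0.24 under si46, close to FOXM1, and -0.23 under si47 (SE 0.120 each, edgeR adjusted p = 0.349 and 0.256). ITFG2 had 0.14 and 0.04 (edgeR adjusted p = 0.640 and 0.878). The part of RHNO1 reads in the FOXM1 counts was not tested.

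**Figure D1:**
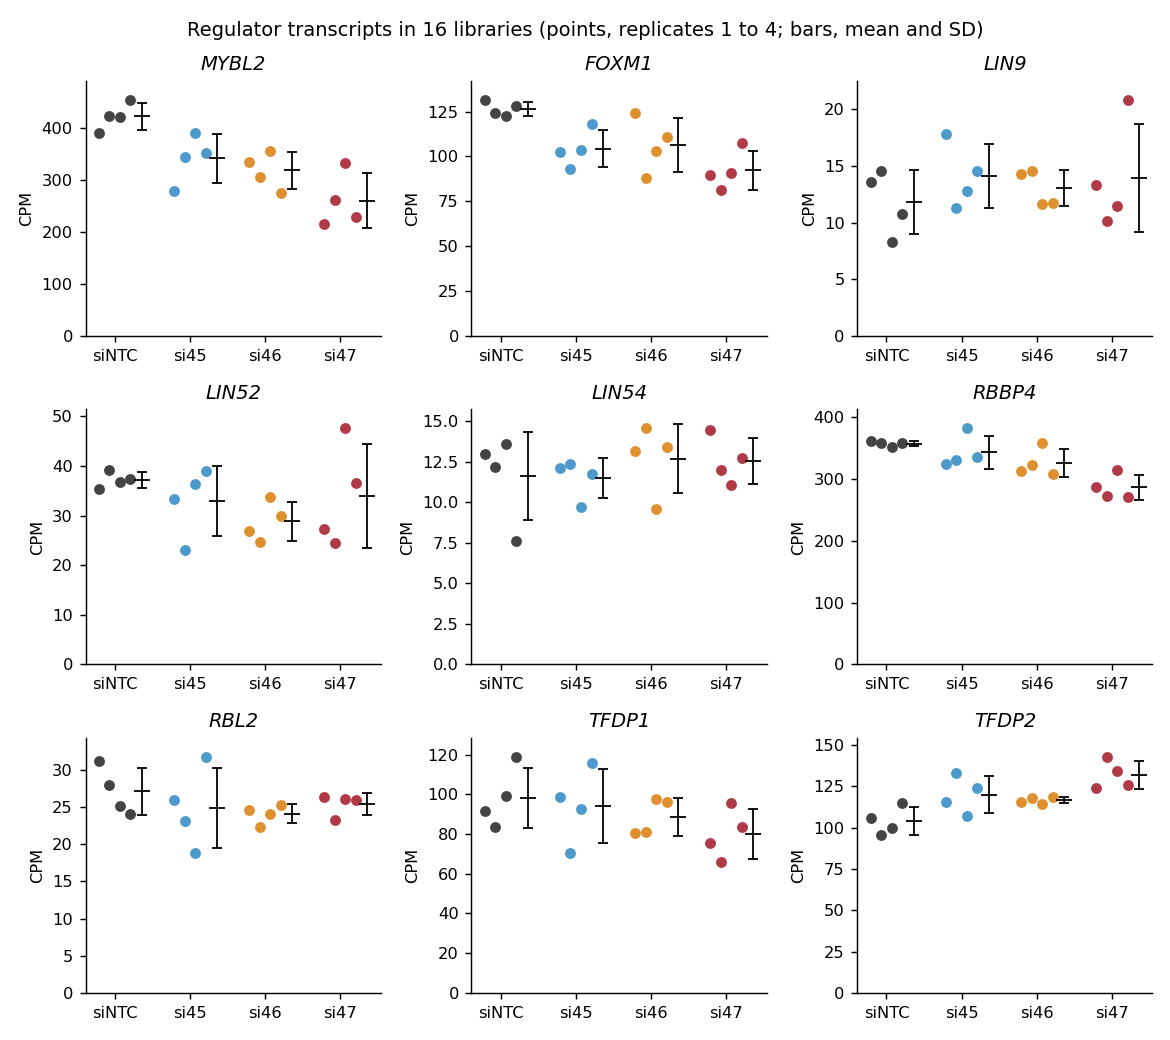
Level of each of the 9 tested genes in CPM (y axis, from 0) in the 16 libraries, grouped by siRNA (x axis). Points are libraries in the order of replicates 1 to 4 and bars give the mean and SD of 4. MYBL2 and FOXM1 lie below the controls in 11 of 12 knockdown libraries, and TFDP2 lies above them in 10 of 12.

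Of the MuvB core subunits, RBBP4 passed the test, under si47. RBBP4 (ENSG00000162521, chromosome 1, 32651142 to 32686211), a histone-binding WD40 protein that also serves other chromatin complexes, was at 361, 358, 352 and 357 CPM in siNTC. It was at 323, 331, 381 and 335 CPM in si45, 312, 322, 358 and 308 CPM in si46, and 287, 273, 315 and 270.4 CPM in si47. All 4 si47 libraries were below the controls, while si45 replicate 3 was above all of them.

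RBBP4 fell by 0.32 on the log2 scale under si47 (SE 0.0806, edgeR adjusted p = 0.00833), from 357 ± 3.89 to 286 ± 20.3 CPM (SD, n = 4). Its values under si45 (-0.06, SE 0.0803) and si46 (-0.14, SE 0.0804) did not pass (edgeR adjusted p = 0.853 and 0.460), nor did the mean of -0.17 (SE 0.0650, 95% interval -0.30 to -0.04). Without si45 replicate 3 the value over the mean passed (-0.19, edgeR adjusted p = 0.0477, within a range of 0.0477 to 0.228 when single libraries were left out). The 6 annotated RBBP4 pseudogenes had at most 9 counts in any library.

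LIN9, LIN52 and LIN54 passed the test under none of the siRNAs. LIN9, the subunit through which MuvB contacts B-MYB together with LIN52, was at 8.32 to 14.5 CPM in siNTC and at 10.2 to 20.8 CPM in the knockdown libraries. These ranges overlap, and the log2 fold change over the mean was 0.21 with a 95% interval of -0.16 to 0.58 (edgeR adjusted p = 0.575). The highest LIN9 level, 20.8 CPM, was that of si47 replicate 4.

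LIN52, a small subunit whose phosphorylation by DYRK1A favours DREAM assembly, was at 35.4, 39.3, 36.7 and 37.3 CPM in siNTC. Under si46 it was at 24.7 to 33.7 CPM, with no library reaching the controls, whereas the si45 range of 23.1 to 39.0 CPM and the si47 range of 24.5 to 47.5 CPM overlapped them. The si46 value of -0.37 (95% interval -0.72 to -0.02) missed the threshold over all genes (edgeR adjusted p = 0.295). The mean over the 3 siRNAs was -0.23 (95% interval -0.50 to 0.05, edgeR adjusted p = 0.367).

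LIN54, the DNA-binding subunit, was at 13.0, 12.2, 13.6 and 7.63 CPM in siNTC and at 9.60 to 14.5 CPM in the knockdown libraries. The knockdown libraries lay on both sides of the first 3 controls, and siNTC replicate 4 was below all of them. The log2 fold change over the mean was 0.08 (95% interval -0.27 to 0.42, edgeR adjusted p = 0.854). LIN54 had 44 to 104 counts in a library, the fewest of the tested genes together with LIN9 (44 to 123). It overlaps RF00019 on the same strand (3 to 61 counts) and THAP9 on the opposite strand (11 to 42 counts). How such reads were counted is not given, so they may affect the LIN54 level.

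LIN37, a subunit needed for repression by DREAM, had 2 counts in all, 1 in siNTC replicate 1 and 1 in si45 replicate 3. In the other 14 libraries it was at 0, which allows at most 3 counts or 0.380 to 0.567 CPM, a limit that covers counting error only. LIN37 (chromosome 19, 35748361 to 35754519) shares its strand and its annotated end with the overlapping gene AD000671.1, which was at 0 in every library. How reads on 2 overlapping genes were counted is not given in the sources used here, so the level of LIN37 cannot be read from these counts.

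The pocket protein and the E2F partners came next. RBL2 (ENSG00000103479, chromosome 16, 53433977 to 53491649) was at 31.3, 28.0, 25.2 and 24.1 CPM in siNTC and at 18.9 to 31.8 CPM over the knockdown libraries, both extremes being si45 libraries. The knockdown libraries overlapped the controls under every siRNA. Its log2 fold change was -0.13 for si45, -0.17 for si46 and -0.10 for si47, and over the mean it was -0.13 (95% interval -0.38 to 0.12, edgeR adjusted p = 0.597). RBL2 overlaps AC007342.1 on the same strand (7 to 53 counts in a library), with the same limit as for LIN54.

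TFDP1 (ENSG00000198176, chromosome 13, 113584721 to 113641470), which encodes DP1, was at 91.4, 83.7, 99.1 and 119 CPM in siNTC, whereas the si47 libraries gave 75.4, 65.7, 95.6 and 83.6 CPM. The groups overlap, and 3 of the 4 si47 libraries were below all controls. A value of -0.29 under si47 (SE 0.133) missed the threshold (edgeR adjusted p = 0.179). Under si45 and si46 the values were -0.06 (SE 0.133) and -0.15 (SE 0.133), and over the mean the value was -0.17 (SE 0.108, edgeR adjusted p = 0.409).

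TFDP2 (ENSG00000114126, chromosome 3, 141944428 to 142149544), which encodes the second E2F partner DP2, was the member that rose. It was at 105, 95.3, 100.0 and 115 CPM in siNTC, at 116, 133, 107 and 124 CPM in si45, at 115, 118, 114 and 119 CPM in si46, and at 124, 143, 134 and 126 CPM in si47. All si47 libraries and 10 of the 12 knockdown libraries were above the controls. TFDP2 rose by 0.34 on the log2 scale under si47 (SE 0.0905, edgeR adjusted p = 0.0118) and by 0.24 over the mean (SE 0.0750, edgeR adjusted p = 0.0461), while 0.21 under si45 and 0.17 under si46 did not pass (edgeR adjusted p = 0.359 and 0.399).

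These TFDP2 calls were close to the threshold. The si47 call was lost without siNTC replicate 2 or si47 replicate 2 (edgeR adjusted p = 0.0506 and 0.0558). The call over the mean was lost without siNTC replicate 1, 2 or 3, si45 replicate 2 or 4, si46 replicate 1, 2 or 4, or si47 replicate 2 (edgeR adjusted p from 0.0573 to 0.172). It was also lost with no filter on low counts (edgeR adjusted p = 0.0796).

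The balance of both E2F partners was read from their counts in the same library, since reads come from transcript ends and do not grow with length. TFDP2 made up 53.6%, 53.2%, 50.2% and 49.1% of the TFDP1 and TFDP2 counts in siNTC. It made up 54.0%, 65.4%, 53.6% and 51.8% in si45, 59.0%, 59.4%, 53.9% and 55.2% in si46, and 62.2%, 68.5%, 58.4% and 60.1% in si47. The si46 and si47 libraries were all above the controls and 2 of the 4 si45 libraries were. No test was made of this share.

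**Figure D2:**
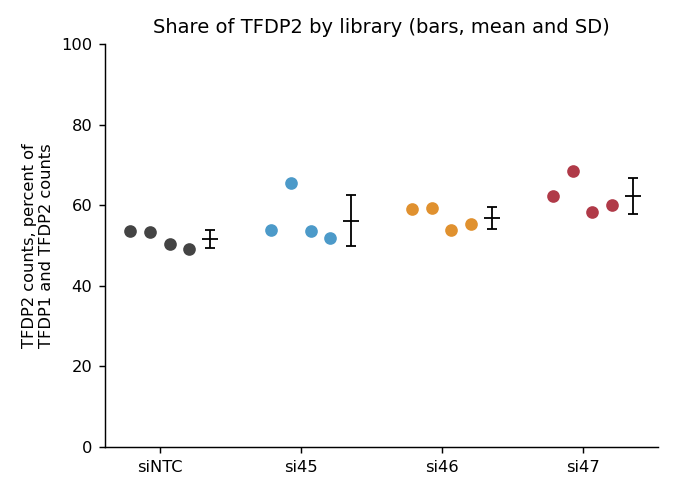
Counts of TFDP2 as a percentage of TFDP1 and TFDP2 counts together (y axis, 0 to 100) in each library, by siRNA (x axis). Points are libraries and bars the mean and SD of 4. The mean was 51.6% ± 2.20 in siNTC and 62.3% ± 4.42 in si47.

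Counted together, 4 of the 9 tested genes passed an adjusted p under 0.05 under si47, MYBL2, FOXM1 and RBBP4 lower and TFDP2 higher, where 4.83% of all 14193 genes tested were lower and 4.91% higher. Under si46 the call for MYBL2 was the single one among the 9, against 1.25% of all genes lower and 2.14% higher. Under si45 0 of 9 passed (edgeR), against 0.324% lower and 1.01% higher among all genes, and 3 had an unadjusted p under 0.05. Over the mean of the 3 siRNAs MYBL2 and FOXM1 were lower and TFDP2 higher, against 3.53% and 3.61% of all genes. The median log2 fold change of the 9 was -0.17 over the mean, against -0.001 over all genes tested. The 4 comparisons share the siNTC libraries, so they are not independent of each other. DESeq2 and limma-voom gave 0 calls among the 9 under si45 as well. With the replicate number as a block, a pairing that the labels do not state, MYBL2 and FOXM1 were called lower under si45 (edgeR adjusted p = 0.0169 and 0.0440).

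**Figure D3:**
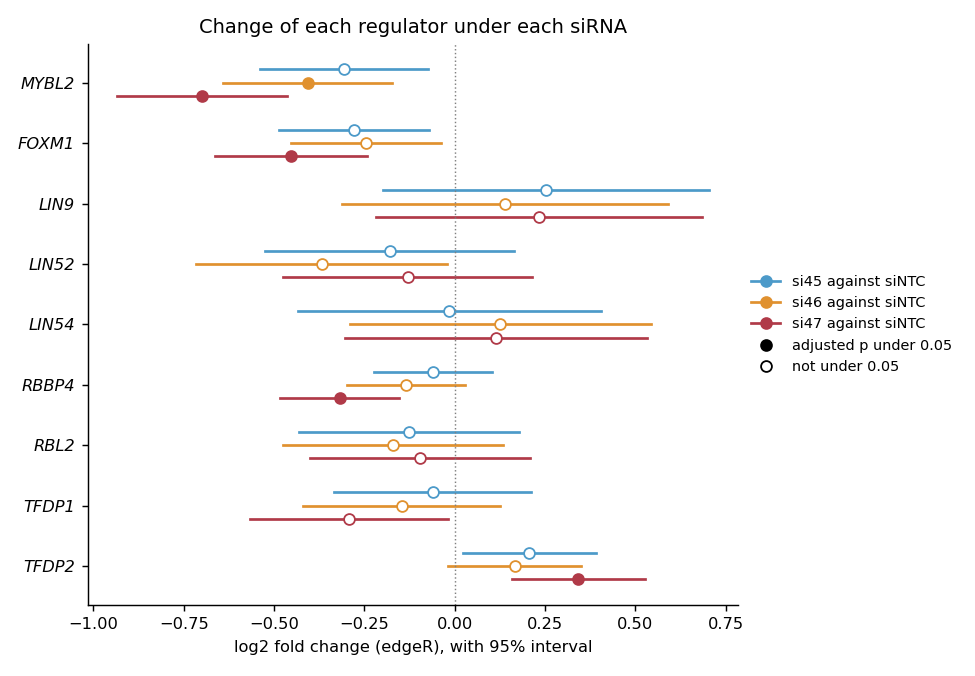
Log2 fold change of each tested gene against siNTC (x axis) with its 95% interval from edgeR, for si45, si46 and si47. Filled points passed an adjusted p under 0.05, which 4 genes did under si47, 1 under si46 and 0 under si45.

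Whether the siRNAs differed from each other was tested directly. For MYBL2 the order of the means was siNTC, si45, si46 and si47 from high to low. It was 0.39 higher on the log2 scale in si45 than in si47 (95% interval 0.16 to 0.63), which did not pass over all genes (edgeR adjusted p = 0.149). Same-numbered si45 and si47 libraries deviated together weakly (r = 0.120 to 0.242), though the labels do not state a pairing. With the replicate number as a block the difference was 0.40 and passed (edgeR adjusted p = 0.00338). It also passed without si47 replicate 3 (0.54, edgeR adjusted p = 0.00641, within a range of 0.00641 to 0.377 when single libraries were left out) and with no filter on low counts (edgeR adjusted p = 0.00327). RBBP4 was 0.26 higher in si45 than in si47 (95% interval 0.10 to 0.42), with an edgeR adjusted p of 0.168 and, with the block, of 0.0236.

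The neighbours si45 and si46 differed by 0.10 for MYBL2 (95% interval -0.13 to 0.33) and by -0.03 for FOXM1 (95% interval -0.24 to 0.18). Between si46 and si47 the differences were 0.29 (0.06 to 0.53) for MYBL2 and 0.21 (-0.002 to 0.42) for FOXM1, and neither passed (edgeR adjusted p = 0.559 and 0.683). By edgeR without a block and with the filter on low counts, 0 of the 9 genes passed in any of these pairs. Of all genes 0.0282% passed between si45 and si46, while si47 differed from si45 in 0.169% and from si46 in 0.0493%. At an unadjusted p under 0.05 the 9 genes gave 0, 2 and 2 in that order of pairs.

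The level of TPX2 varied between the knockdown libraries, and the genes were set beside it after their values had been seen. TPX2 is itself a late cell cycle gene, left out of the late genes counted below because it is the siRNA target. Its level also varied in siNTC, which had no knockdown, from 297 to 359 CPM. The part of knockdown depth in the relations below was not tested. In each siRNA group replicate 3 had the highest TPX2 (121 CPM for si45, 93.8 for si46 and 76.3 for si47), the highest MYBL2 (392, 357 and 334 CPM) and the highest RBBP4 (381, 358 and 315 CPM). Over the 12 knockdown libraries, on the log2(CPM + 1) scale, MYBL2 and TPX2 had Pearson's r = 0.767 (two-sided permutation p = 0.00306, 0.0138 adjusted over 9 genes) and Spearman's rho = 0.853 (permutation p = 7.6e-04, adjusted 0.00684). Without the 2 libraries farthest from the median TPX2, si45 replicate 3 and si46 replicate 4, r was 0.813, and within siRNA groups, as deviations from their means, it was 0.654. An exact permutation test of that within-group relation, which moves libraries only inside their siRNA group and was added after the data had been seen, gave p = 0.00752 (adjusted 0.0371 over 9 genes). No test here takes account of the replicate number that same-numbered libraries share.

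RBBP4 gave r = 0.814 (permutation p = 0.00123, adjusted 0.0111) and rho = 0.804 (permutation p = 0.00267, adjusted 0.0120), with r = 0.836 without the same 2 libraries and 0.738 within groups (exact permutation p = 0.00825, adjusted 0.0371). FOXM1 did not follow TPX2 in this way, with r = 0.297 (permutation p = 0.354, adjusted 0.473) and rho = 0.364 (permutation p = 0.247, adjusted 0.371). Without those 2 libraries its r was 0.648, and within groups it was 0.0812. LIN54 had r = -0.668 (permutation p = 0.0165, adjusted 0.0496), but rho = -0.545 did not pass (permutation p = 0.0691, adjusted 0.155) r was -0.457 without the 2 libraries, and within groups the adjusted exact permutation p was 0.135. TFDP2 had r = -0.627 and rho = -0.678 (adjusted permutation p = 0.0640 and 0.0547). For LIN9, LIN52, RBL2 and TFDP1 the adjusted permutation p of r ran from 0.209 to 0.971.

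**Figure D4:**
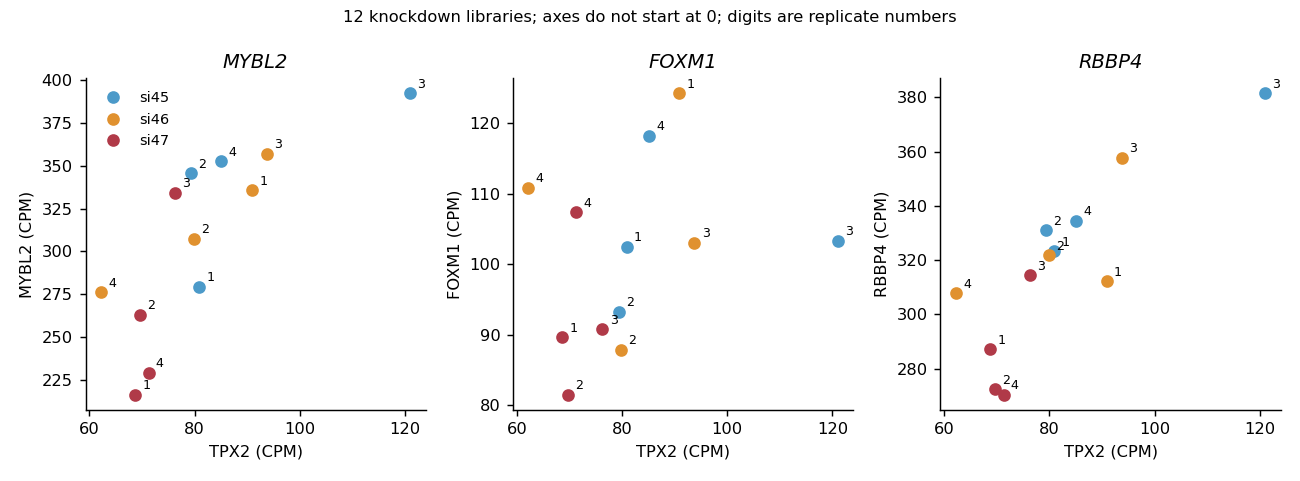
Level of MYBL2, FOXM1 and RBBP4 (y axes, CPM, not from 0) against TPX2 (x axis, CPM, not from 0) in the 12 knockdown libraries, with the replicate number beside each point and colours for the siRNA. MYBL2 and RBBP4 are high where TPX2 is high (r = 0.767 and 0.814 on the log2 scale), and FOXM1 is scattered (r = 0.297).

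MYBL2 and FOXM1 also differed in the genes whose pattern was most like theirs over all 16 libraries, among 11774 genes with a mean count of at least 20. As a description, log2 CPM of MYBL2 was most like that of the mitotic kinase AURKB (Pearson's r = 0.970), the activator E2F1 (0.964), the histone gene H4C3 (0.960), the Fanconi anaemia gene FANCD2 (0.959) and the connexin gene GJC1 (0.957). Histone genes have near-identical copies, so the counts of H4C3 are uncertain. For FOXM1 the 5 most alike were DLC1, TROAP, GKAP1, the kinesin KIF20B and the kinetochore protein CENPF (r = 0.858 to 0.886). MYBL2 and FOXM1 had r = 0.611 with each other, and FOXM1 ranked 1078th among the genes like MYBL2. As deviations from group means their r was -0.0671, against 0.929 for MYBL2 and AURKB. All these values share libraries and group differences, and RBBP4 was the 62nd gene most like MYBL2 (r = 0.886).

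The other parts of the pathway were described from a list of 19 partners and regulators, of which 17 could be tested (CCND2 and TFDP3 could not). Over the mean of the 3 siRNAs 3 were higher and 2 lower (17.6% and 11.8%), where 3.61% of all genes were higher and 3.53% lower. The partners had a median log2 fold change of -0.04, against -0.001 over all genes tested. RBL1, the pocket protein p107 that can replace RBL2 in DREAM, had a control mean of 42.5 ± 3.99 CPM (SD, n = 4), against 34.6 CPM for si45, 28.9 ± 3.44 CPM for si46 and 22.2 ± 5.48 CPM for si47. All 12 knockdown libraries lay below the controls, and RBL1 fell by 0.60 over the mean (SE 0.116, edgeR adjusted p = 8.3e-04). The kinase gene CDK2 fell by 0.41 (SE 0.0902, edgeR adjusted p = 0.00431) and was below all controls in 8 of 12 libraries.

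Among the partners that rose, CDKN1A, which encodes the CDK inhibitor p21, had a control mean of 66.7 ± 26.1 CPM (SD, n = 4), against 274 ± 27.6 CPM for si45, 417 ± 65.1 CPM for si46 and 547 ± 102 CPM for si47. Its rise over the mean was 2.58 on the log2 scale (SE 0.235, edgeR adjusted p = 2.1e-05). The kinase gene DYRK1B rose by 0.92 (SE 0.255, edgeR adjusted p = 0.0208) from 3.51 ± 0.636 CPM, and all 12 knockdown libraries were above the controls for both genes. The cyclin gene CCND1 rose by 0.28 (SE 0.0709, edgeR adjusted p = 0.0105). E2F4, E2F5, RBBP7, MYBL1 and DYRK1A, which encode further DREAM subunits, relatives or the LIN52 kinase, did not pass. Without siNTC replicate 1, 3 of the 17 were called, and the share of all genes called in that fit was not worked out.

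Genes known as targets of these regulators were counted from 2 lists. The 38 early genes, which act in S phase and carry E2F sites, had a median log2 fold change of -0.40 over the mean of the 3 siRNAs. Of them 26 were lower and 0 higher, against 3.53% and 3.61% of all genes. Under si45, si46 and si47 0, 10 and 31 of the 38 were lower, where 0.324%, 1.25% and 4.83% of all genes were. The 4 with the lowest p were MCM4, a subunit of the replicative helicase, the licensing factor CDT1, the histone chaperone subunit CHAF1A and the repair gene BRCA1. They fell by 0.47 (SE 0.0737), 0.56 (SE 0.0912), 0.47 (SE 0.0788) and 0.48 (SE 0.0805), and each was below all controls in at least 11 of 12 knockdown libraries (edgeR adjusted p at most 1.4e-04).

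The median for the 53 late genes, whose products serve G2 and mitosis, was -0.27, with 26 lower and 0 higher, against 3.53% and 3.61% of all genes. Under si45, si46 and si47 3, 13 and 25 of the 53 were lower, where 0.324%, 1.25% and 4.83% of all genes were. The proliferation marker MKI67, the spindle gene ASPM, the mitotic kinase CDK1 and the chromosomal passenger kinase AURKB had the lowest p. They fell by 0.50 (SE 0.0693), 0.48 (SE 0.0709), 0.50 (SE 0.0761) and 0.51 (SE 0.0863), and were below all controls in 12 of 12 libraries (edgeR adjusted p at most 2.5e-04). Without siNTC replicate 2 the count of lower late genes was 16 of 53, and the share of all genes in that fit was not worked out. The whole of both lists was chosen with results of these libraries known, so their counts are not independent evidence of a direction.

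**Figure D5:**
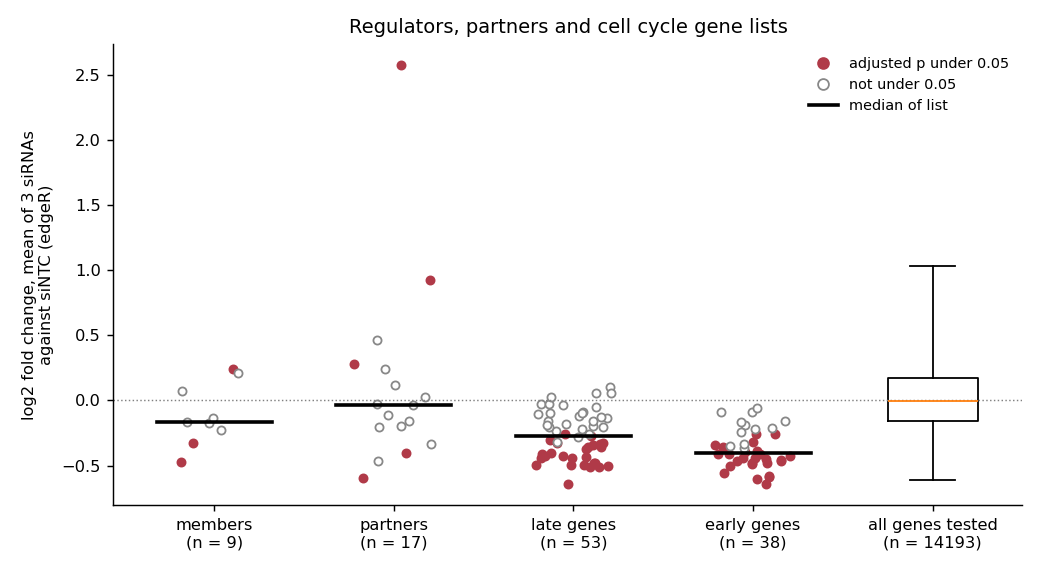
Log2 fold change over the mean of the 3 siRNAs against siNTC (y axis, edgeR) for the 9 tested regulators, 17 partners, 53 late and 38 early genes, with the box (quartiles and median, whiskers over the central 95%) for all 14193 genes. Filled points passed an adjusted p under 0.05, which 26 late and 26 early genes did, all of them lower, where 3.53% of all genes were lower. Black lines are list medians, -0.27 for late and -0.40 for early genes.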

How the data were processed

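RNA of IMR32 cells was sequenced from transcript ends in 16 libraries (QuantSeq 3' kit, 15 PCR cycles, per the labels' protocols). The authors deposited raw counts per Ensembl gene, which are whole numbers without normalization. FastQC 0.11.7, STAR 2.7.2b, edgeR 3.36.0, limma 3.50.3 and GRCh38 are named in the submitters' processing notes without roles. The counter, the annotation, strand use and any collapse of molecular identifiers are not given in the sources used here. Duplicate reads, if kept, add to the spread. The series' design text calls the replicates biological without saying whether cultures were separate, so p-values measure the spread between these libraries.

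Libraries were grouped by siRNA from their titles, and no column was left out. Symbols (58434 of 58787 identifiers) came from a table of gene names, positions from GENCODE v29 and promoters from RefSeq. Genes were kept by edgeR's filterByExpr (minimum count 10, minimum total 15), normalised with TMM factors and entered, all 16 libraries together, into a robust quasi-likelihood fit of the 4 group means without covariates (edgeR 4.0.16, limma 3.58.1, DESeq2 1.42.0, R 4.3.3). p-values were adjusted by Benjamini-Hochberg over all 14193 genes of a contrast, and 0.05 was the threshold. Standard errors are the log2 fold change divided by the square root of F. CPM uses TMM library sizes, log2 CPM a prior count of 2. TPX2 was tested by exact permutation on log2(CPM + 1), and relations with TPX2 by 100000 permutations and, within siRNA groups, by all 13824 arrangements. Depth was 5318159 to 7864343 counts. Chi-square statistics of 24 replicate pairs were 4.36 to 9.80 per degree of freedom. Scripts were tested on simulated data with known changes in si47, in genes drawn from all those tested. The fit called 4% of the genes changed by 0.3 on the log2 scale, 30.6% at 0.5 and 57.3% at 1. Changes of such size can therefore be missed by the threshold.

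All 10 members were described, with partners past the threshold over the mean, the 4 target genes of each list with the lowest p, and the 5 genes most like MYBL2 and FOXM1. CDKN1A and TPX2 were named whatever their values. Members and lists were chosen with earlier results of these data known. Deviations from group means correlated over 0.1 in all 4 same-numbered pairs of si45 and si47 (r = 0.120 to 0.242). No other 2 groups passed 0.1 in all 4, but all values were positive. The r was 0.0716 to 0.247 for si45 and si46 and 0.0854 to 0.209 for si46 and si47. Against siNTC it was 0.0752 to 0.184 for si45, 0.0387 to 0.112 for si46 and 0.0188 to 0.114 for si47. The r between libraries of unlike number was not computed, so these values have nothing to be set against. A pairing of si45 with si47 rests on the counts and on this cut, since the labels give only a number. The alternatives tried were DESeq2, limma-voom, RLE or upper-quartile scaling, other filters, fewer groups, the replicate block, and leaving out each library.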

Additional observations from a re-analysis of the deposited data

Results flagged for a closer look

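In 48 groups of 4 libraries (CPM of the 9 tested genes and TPX2, the TFDP2 share and total counts), 3 had a library whose gap to the nearest other was too large a share of the range of its group (Dixon's test at 95%), where chance gives about 2.4. For TPX2, si45 replicate 3 gave 121 CPM and the other si45 libraries 79.4 to 85.1 CPM. RBL2 in si47 replicate 2 was at 23.2 CPM, against 25.9 to 26.4 CPM in the others. The TFDP2 share in si45 replicate 2 was 65.4%, against 51.8% to 54.0% in the others.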

How the results depend on the processing

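MYBL2, FOXM1 and RBBP4 under si47 and MYBL2 over the mean kept their calls and direction in every alternative run. Depth limits LIN9 and LIN54, which had 44 to 123 counts in a library and wide intervals. With the replicate block, 2 of the 9 genes were called under si45 (MYBL2, -0.32, and FOXM1, -0.28) and 2 between si45 and si47. RBBP4 also passed over the mean (-0.18) and TFDP1 under si47 (-0.29). The share of all genes called with the block was not worked out, so these counts have no background to be read against. The labels give only a replicate number and pair no groups, neither si45 with siNTC nor si45 with si47. With no filter on low counts 1 gene was called between si45 and si47. When single libraries were left out, the number of the 9 genes called ran from 0 to 1 under si46, 3 to 4 under si47, 1 to 4 over the mean (1 without siNTC replicate 1) and 0 to 1 between si45 and si47. The partners called ran from 3 to 6, the late genes from 16 to 28 and the early genes from 18 to 30. The share of all genes called was not worked out without the filter or without a library, so these counts have no background either. Some uncalled values changed sign: LIN54 under si45 with limma-voom (0.016), and, when single libraries were left out, LIN9 under si47 (-0.024 to 0.36, the first without si47 replicate 4), TFDP1 under si45 (-0.18 to 0.064) and LIN54 under si45 (-0.17 to 0.067), si46 (-0.029 to 0.24), si47 (-0.040 to 0.20) and the mean (-0.080 to 0.16). The cause was not tested. RLE and upper-quartile factors changed no call among the 9 genes.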

Other observations

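Among the late genes that did not pass over the mean of the 3 siRNAs were several that are well known for mitotic entry and exit, named here after their values were seen. Other such genes of the list were lower at an edgeR adjusted p under 0.05, among them CDK1 (-0.50), CCNA2 (-0.33), CDC25C (-0.43), UBE2C (-0.33) and AURKA (-0.45). CDC20, the activator of the anaphase-promoting complex, had a control mean of 54.2 ± 1.21 CPM (SD, n = 4), against 53.2 ± 8.44 CPM for si47, with a log2 fold change of -0.03 over the mean (SE 0.103, edgeR adjusted p = 0.918). CCNB1 (-0.13, SE 0.105) and the kinase gene PLK1 (-0.16, SE 0.0939) did not pass either (edgeR adjusted p = 0.550 and 0.349). The 4 late genes with a positive value were CCNB2 (0.10), CKS2 (0.06), KIF20A (0.06) and RACGAP1 (0.03). Of the early genes, the 12 that did not pass included PCNA (-0.09, SE 0.0779) and CCNE2 (-0.06, SE 0.125), and none of the 38 had a positive value. The lowest value among late genes was that of TOP2A, which fell by 0.65 (SE 0.138, edgeR adjusted p = 0.0108). Its mean was 2987 ± 193 CPM for siNTC and 1624 ± 298 CPM for si47.

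Of the 11774 genes ranked, most were on neither the early list of 38 nor the late list of 53. Among the 100 genes most like MYBL2 over the 16 libraries, 15 were on the early list and 5 on the late list. Of the 100 most like FOXM1, 1 was on the early list and 11 on the late list. This is a description of the same libraries and was not tested.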
